A study of Caenorhabditis elegans with 2 samples.

Results

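The 169 cuticle collagen genes of Caenorhabditis elegans are described here by where an eGFP-tagged CEH-30 protein was mapped around them in late embryos. Members were the protein-coding genes of the Ensembl annotation named col followed by a number (156 genes), plus 13 collagen genes named for a mutant body shape: dpy-2, dpy-3, dpy-5, dpy-7, dpy-8, dpy-10, dpy-13, dpy-17, sqt-1, sqt-3, rol-6, bli-1 and bli-2. They make up 169 of the 19973 protein-coding genes of the nuclear chromosomes and were chosen by name, not by any measured value. The name rule also took in col-99, a transmembrane collagen that is not a cuticle component.

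Chromatin immunoprecipitation followed by sequencing (ChIP-seq) was made on whole late embryos of strain OP120, genotype unc-119(ed3) III; wgIs120, in which the wgIs120 insertion carries the eGFP-tagged ceh-30 transgene. The ceh-30 gene encodes a homeodomain protein of the BarH class, best known for protecting a set of male sensory neurons from cell death. The 2 samples are labelled as biological replicates of 1 group with the sexes pooled, the labels give ceh-30 as the antibody, and the control library they name was not analysed here. With 1 group there is no comparison between conditions. Because chromatin came from whole animals, a site held in few cells and a site held weakly in many cells cannot be told apart, and no cell type was assigned.

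The cuticle of the worm is an extracellular coat made mainly of small collagens that the epidermis secretes at its apical side. The first cuticle is laid down in the late embryo and a new one before each moult, with waves of collagen gene expression in each cycle. Collagen chains are hydroxylated and assembled into trimers in the endoplasmic reticulum, cut by proteases on the way out and cross-linked in the matrix, and mutations in single collagens can make animals short (dpy), rolling (rol, sqt) or blistered (bli).

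Positions are peak summits on WBcel235 (ce11), counted from 1, and a gene was counted where a summit lay in its promoter window, from 1000 bp before to 500 bp after its 5′ end. The authors deposited 4 lists: an optimal list of 545 peaks, a relaxed list called on the pooled replicates (30000 peaks), and a relaxed list for each replicate (30000 peaks in replicate 1 and 17926 in replicate 2). The relaxed lists hold background as well as peaks, so a summit in a window does not by itself show that CEH-30 was bound there. Signal is the authors' own peak height, has no unit that carries over between lists, and is given with its rank within the list.

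The sequences around the summits that carry the main observations run from 50 bases before to 50 bases after the pooled summit, read on the strand of the collagen gene. The first 4 belong to the collagen genes with an optimal summit. In col-185 and col-85 the capitals mark bases of a tRNA gene, and in the other sequences they mark the word TAAT, the word GACGCA, the word TAAACG or the word GATAAG on either strand.
col-38, II:8569496-8569596, minus strand: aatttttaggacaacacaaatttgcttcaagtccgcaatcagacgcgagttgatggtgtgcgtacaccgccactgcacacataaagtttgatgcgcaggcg
col-71, II:3502771-3502871, minus strand: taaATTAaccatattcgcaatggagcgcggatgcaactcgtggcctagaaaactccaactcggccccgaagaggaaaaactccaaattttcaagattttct
col-185, X:13511902-13512002, minus strand: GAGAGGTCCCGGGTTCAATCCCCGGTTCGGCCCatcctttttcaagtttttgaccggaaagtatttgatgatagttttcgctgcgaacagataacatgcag
col-85, II:12494745-12494845, minus strand: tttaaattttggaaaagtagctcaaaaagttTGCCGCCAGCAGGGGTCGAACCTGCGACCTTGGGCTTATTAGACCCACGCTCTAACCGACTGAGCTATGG

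The next 3 are col-72, which ranked first among the collagens without an optimal summit, and sqt-3 and dpy-10, the shape-named collagens of highest pooled signal upstream of their 5′ ends.
col-72, II:3523682-3523782, minus strand: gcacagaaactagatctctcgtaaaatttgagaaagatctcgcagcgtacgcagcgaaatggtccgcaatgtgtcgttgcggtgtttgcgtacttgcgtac
sqt-3, V:12351995-12352095, plus strand: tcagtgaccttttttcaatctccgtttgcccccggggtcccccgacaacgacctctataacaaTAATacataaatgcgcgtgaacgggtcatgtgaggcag
dpy-10, II:6712417-6712517, minus strand: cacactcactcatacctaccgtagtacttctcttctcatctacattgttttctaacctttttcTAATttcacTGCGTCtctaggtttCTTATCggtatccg

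None of the 7 windows held a homeodomain word (TAATTG or TAATTA or TAAACG). The dpy-10 window held TAAT along with GACGCA (as TGCGTC) and GATAAG (as CTTATC), and the col-71, col-85 and sqt-3 windows held TAAT once each. In col-85 it lies within the tRNA gene and is not marked apart. The windows of col-38 and col-72 held none of the words.

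How often cuticle collagen genes had a summit was read against all protein-coding genes. In the optimal list 4 of 169 collagen genes had a summit (2.37%, exact 95% interval 0.649% to 5.95%), against 2.4% of all protein-coding genes. In the pooled relaxed list 56 collagen genes had one (33.1%, 26.1% to 40.8%), against 45.0% of all genes. In replicate 1 there were 61 (36.1%, 28.9% to 43.8%), against 45.3%, and in replicate 2 there were 39 (23.1%, 17% to 30.2%), against 31.2%. The optimal share was close to that of all genes, and the relaxed shares were lower in each of the 3 lists, with intervals that ended below the share of all genes.

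Summits in both replicate lists were found at 18 collagen genes (10.7%, 6.44% to 16.3%), against 20.3% of all genes, and summits in the pooled and both replicate lists at 16 (9.47%, 5.51% to 14.9%), against 19%. At least 1 of the lists gave a summit for 91 collagen genes (53.8%, 46.0% to 61.5%), against 61.1%, an interval that just reached the share of all genes. The other 78 collagen genes had no summit in any list. The intervals are exact binomial (Clopper-Pearson) intervals and cover only the counting of genes, which they treat as independent although 57 of the 169 collagen genes lay within 10 kb of another. Of those 57 genes, 16 had a pooled summit, as did 40 of the 112 that stood alone, both below the 45.0% of all genes.

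**Figure D1:**
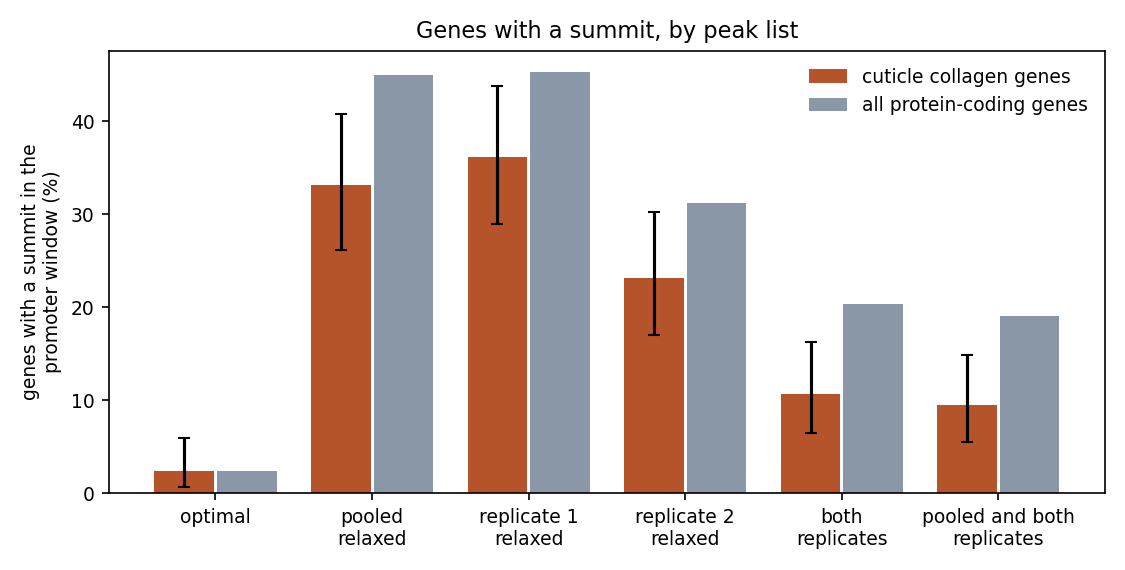
Share of genes with a summit in the promoter window (%), for the 169 cuticle collagen genes and for all 19973 protein-coding genes in each peak list. Error bars are exact 95% intervals on the collagen share; the bars are level in the optimal list (2.37% and 2.4%), and the collagen bar is the shorter one in the relaxed lists and their intersections.

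The replicates shared a smaller part of their collagen genes than of all genes. Of the 61 collagen genes with a replicate 1 summit, 18 also had one in replicate 2 (29.5%, 18.5% to 42.6%), against 44.7% of all genes with a replicate 1 summit. Of the 39 with a replicate 2 summit, the same 18 also had one in replicate 1 (46.2%, 30.1% to 62.8%), against 65.0% of all genes. Summits in 1 replicate list only, with none in the pooled list, were found at 24 collagen genes for replicate 1 (14.2%, against 10.7% of all genes) and 9 for replicate 2 (5.33%, against 4.17%), shares near those of all genes. The summits of the replicates lay within 100 bp of each other at 7 of the 18 shared genes: col-40, col-71, col-185, col-72, col-38, col-104 and col-2, at 3, 7, 28, 31, 39, 86 and 88 bp. These make up 4.14% of collagen genes, against 10.2% of all genes with replicate summits that close.

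Across the 18 shared collagen genes, the strongest signals of the replicates had a Spearman coefficient of 0.212 and a Pearson coefficient of 0.496 on the log2 scale. Over the 4049 genes of the whole genome with a summit in both replicate lists, these were 0.414 and 0.528. These points share a pair of libraries, so the coefficients are descriptions only.

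Among the higher ranks of each list, the optimal peaks included, the collagen share was below that of all genes in the pooled and replicate 1 lists, and the interval in replicate 2 spanned it. Among the first 5000 pooled summits by signal, 9 collagen genes were represented (5.33%, 2.46% to 9.87%), 4 of them by an optimal peak, against 14.1% of all genes. Among the first 5000 of replicate 1 there were 10 (5.92%, 2.87% to 10.6%), against 13.3%, and of replicate 2 there were 16 (9.47%, 5.51% to 14.9%), against 12.7%. Among collagen genes with a pooled summit, the median of the strongest signal was 13.5 (range 10.1 to 59.8, n = 56), against 15 for all genes (n = 8987). In replicate 1 it was 7.74 (n = 61) against 8.59, and in replicate 2 it was 10.9 (n = 39) against 10.7, so the replicate 2 medians were nearly equal.

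Around the 5′ ends, the collagen genes lacked the rise in summits that all genes showed just upstream. In the 250 bp before the 5′ end, pooled summits had a density of 0.284 per kb per gene at collagen genes and 0.543 at all genes, where the genome as a whole held 0.299 per kb. The values were 0.237 and 0.528 in replicate 1 (0.299 over the genome), and 0.142 and 0.361 in replicate 2 (0.179 over the genome). A pooled summit within these 250 bp was found at 12 collagen genes (7.1%, 3.72% to 12.1%), against 13.5% of all genes. Replicate 1 had 10 such collagen genes (5.92%, 2.87% to 10.6%), against 13.1%, and replicate 2 had 6 (3.55%, 1.31% to 7.57%), against 9.0%. No collagen gene had an optimal summit there (0 of 169, an upper exact limit of 2.16%), against 1.11% of all genes.

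**Figure D2:**
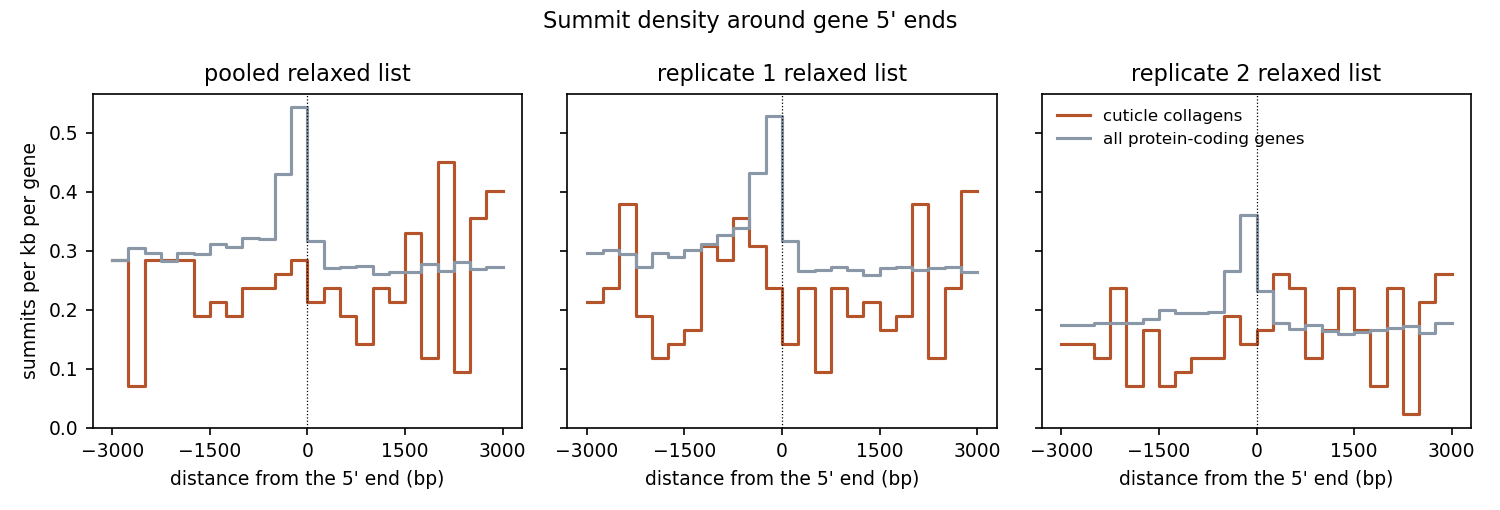
Summits per kb per gene in 250 bp bins from 3000 bp before to 3000 bp after the 5′ end (dotted line, upstream negative), for cuticle collagens and all protein-coding genes in the 3 relaxed lists. All genes peak in the bin before the 5′ end (0.543, 0.528 and 0.361); collagen genes stay at 0.284, 0.237 and 0.142 in that bin, with uneven values elsewhere, where 169 genes give few summits per bin.

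Over the whole promoter window, collagen genes held a mean of 0.373 pooled summits, below the 0.551 of all genes and below the 0.449 that the genome average gives for a stretch of that length. The means were 0.391 and 0.552 in replicate 1 (0.449 from the genome average), and 0.249 and 0.357 in replicate 2 (0.268). Collagen genes were shorter, with a median length of 1219 bp against 2027 bp, and had a median upstream gap to the next gene of 838 bp against 937 bp. The part of gene length, spacing or mapping in the lower counts was not tested.

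The 63 pooled summits in collagen windows were spread over several kinds of sequence. Intergenic sequence held 27, the collagen gene's own intron 8, its own coding exons 9, its own 5′ UTR 3, and another gene 16. The collagen's own 5′ end was the nearest coding 5′ end for 57 of the 63 (90.5%), against 83.2% of all gene and summit pairs in the list, and 9 of the 63 also lay in the window of another gene (14.3%), against 29.9%. Summits upstream of the 5′ end made up 68.3% of the collagen pairs and 73.2% of all pairs. The median distance to the 5′ end was 417 bp for collagen genes and 330 bp for all genes.

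The 4 collagen genes with an optimal summit also had the strongest collagen summits of the pooled list. At col-38 (II:8568035-8569088, minus strand) the signal was 59.8 in the pooled list (rank 136), 33.3 in replicate 1 (rank 83) and 26.1 in replicate 2 (rank 356). The summit lay 458 bp upstream, in the 838 bp between col-38 and the divergent gene rpl-5, which encodes a protein of the large ribosomal subunit. The 5′ end of rpl-5 was nearer to the pooled summit, at 381 bp. In replicate 2 the strongest summit lay 412 bp from col-38 and 427 bp from rpl-5, so col-38 was the nearer gene there. Among ribosomal protein genes 25 of 80 had an optimal summit (31.2%), against 2.37% of collagen genes and 2.4% of all genes. rpl-5 is among these 25 by this same summit, and which of the 2 genes the summit belongs to was not tested. col-38 was the only collagen gene whose summit ranked within the first 545 of each replicate list as well as of the pooled list.

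At col-71 (II:3500077-3502570, minus strand) the signal was 49.1 in the pooled list (rank 259), 28.5 in replicate 1 (rank 151) and 19.9 in replicate 2 (rank 790). The 3 summits lay 251, 253 and 260 bp upstream, close together in all 3 lists. This stretch is also a shared upstream region: the 5′ end of the divergent gene Y49F6B.2 was 147 bp from the pooled summit and nearer than that of col-71.

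At col-185 (X:13510035-13511097, minus strand) the signal was 39.3 in the pooled list (rank 524), 12.7 in replicate 1 (rank 2610) and 25 in replicate 2 (rank 391). The summit lay 855 bp upstream and 18 bp from the tRNA-Pro gene H06A10.t1 (X:13511970-13512041), whose bases make up the first 33 of the sequence printed above. The 5′ end of col-185 was the nearest coding 5′ end.

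At col-85 (II:12493703-12495095, minus strand) the signal was 39.1 in the pooled list (rank 530), 20.9 in replicate 1 (rank 477) and 21.5 in replicate 2 (rank 614). The pooled summit lay 300 bp downstream of the 5′ end, in an intron of col-85 and inside the tRNA-Ile gene T21B4.t1 (II:12494741-12494814) on the opposite strand. Of the 32-base words in this window, 67.1% occurred at more than 1 place in the genome, and the part of repeated sequence in the signal was not tested. At col-38 and col-71 another protein-coding 5′ end was nearer to the optimal summit, and at col-185 and col-85 a tRNA gene lay within 100 bp. Among all gene and summit pairs of the optimal list, the gene's own 5′ end was nearest in 69.5%, and a small RNA gene lay within 100 bp in 6.64% of 482 pairs. The summit also lay in the window of another gene in 57.9% of these pairs, as it did at col-38 and col-71. How many of all these pairs met either of the first conditions was not counted, so the 4 collagen genes are not set apart by them.

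**Figure D3:**
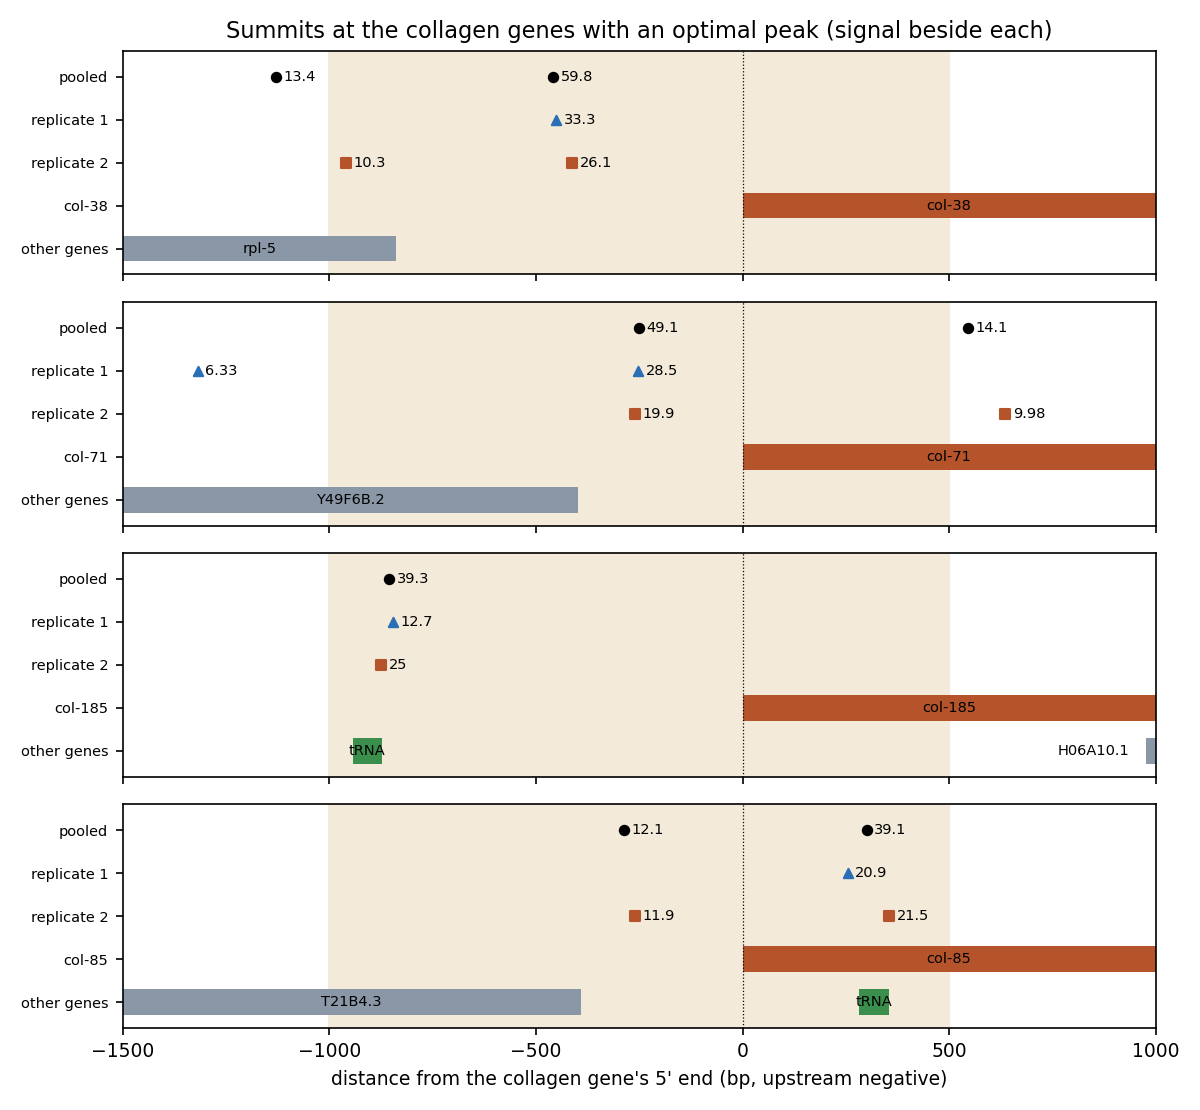
Summits of the pooled and replicate relaxed lists at the 4 collagen genes with an optimal summit (horizontal axis, bp from the collagen's 5′ end, upstream negative), with the signal beside each summit and the promoter window shaded. The strongest summits of the 3 lists lie near each other at each gene, with those at col-85 the farthest apart (254, 300 and 355 bp downstream), and weaker summits lie elsewhere at col-38, col-71 and col-85; rpl-5 and Y49F6B.2 begin upstream of col-38 and col-71, and tRNA genes (green) lie at the summits of col-185 and col-85.

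col-72 had the strongest pooled summit of the collagens outside the optimal list, whose lowest collagen signal was 39.1. Its signal was 33.3 in the pooled list (rank 823), 6.2 in replicate 1 (rank 24866) and 24.2 in replicate 2 (rank 431), so the rank in the pool came with a high rank in replicate 2 alone. The pooled summit lay 465 bp downstream, in an intron of col-72, and 62.9% of the 32-base words there occurred elsewhere in the genome. col-40 had a signal of 24.0 in the pooled list (rank 2031), 10.5 in replicate 1 and 9.87 in replicate 2, at 497, 497 and 494 bp downstream, in an intron of the gene. Of the collagen genes with summits in both replicates, col-40 had the closest pair.

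Of the shape-named collagens, sqt-3 and dpy-17 had a summit in the pooled and both replicate lists. sqt-3, a collagen needed for the first cuticle, had a signal of 21.3 in the pooled list (rank 3007), 6.58 in replicate 1 (rank 21909) and 14.7 in replicate 2 (rank 2094), between 652 and 768 bp upstream. dpy-17, a collagen that acts with sqt-3, had its strongest signals of 18.6 in the pooled list (rank 5098), 11.8 in replicate 1 (rank 3566) and 12.2 in replicate 2 (rank 4155). They lay 417 bp downstream, 389 bp upstream and 141 bp downstream, so the strongest summits stood at different positions. Weaker summits lay nearer: replicate 1 had a further one 399 bp downstream (8.51), close to the strongest pooled summit, and the pooled list had a further one 196 bp downstream (12.1), near that of replicate 2. The nearest optimal summits were 49.1 kb from sqt-3 and 89.0 kb from dpy-17.

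The collagens of the annular furrows, a group that includes dpy-2, dpy-3, dpy-7, dpy-8 and dpy-10, had no optimal summit and differed in their relaxed ones. dpy-10, widely used as a marker gene in genome editing, had a signal of 18.3 in the pooled list (rank 5343) and 13.6 in replicate 2 (rank 2820), at 240 and 242 bp upstream, and no window summit in replicate 1. This site also lay in an intron of T14B4.19. The nearby dpy-2 showed the other pattern, with 13.5 in the pooled list (42 bp upstream) and 8.95 in replicate 1 (65 bp upstream) and none in replicate 2.

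dpy-7, whose promoter is a standard epidermal driver, had 6.77 in replicate 1 (206 bp upstream) and 8.63 in replicate 2 (58 bp downstream) but no pooled summit in its window. The replicate 1 site held TAATTG and GATAAG within 50 bp, and the replicate 2 site held neither. dpy-3 had a replicate 1 summit only (8.3, 665 bp upstream), and dpy-8 had none in any list. The nearest pooled summit to dpy-8 had a signal of 12.7 and lay 1159 bp downstream.

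Of the remaining shape-named collagens, dpy-13 (7.3, 653 bp upstream) and bli-2 (6.55, 307 bp upstream) had a window summit in replicate 1 only. dpy-5, sqt-1, rol-6 and bli-1 had none in any list. Their nearest pooled summits lay 3190, 3747, 1396 and 5424 bp downstream of the 5′ ends, with signals of 30.6, 19.9, 17.5 and 16.9. bli-1 and bli-2 encode collagens of the struts of the adult cuticle, and rol-6 and sqt-1 are known from mutants that roll. In all, the pooled list reached 4 of the 13 shape-named genes (30.8%, 9.09% to 61.4%) and 52 of the 156 numbered ones (33.3%, 26.0% to 41.3%), both against 45.0% of all genes. In replicate 1 the shape-named genes were above all genes, at 7 of 13 (53.8%, 25.1% to 80.8%) against 45.3%, and in replicate 2 they stood at 4 of 13 (30.8%) against 31.2%. In both replicate lists they stood at 3 of 13 (23.1%) against 20.3%, and in at least 1 list at 8 of 13 (61.5%) against 61.1%, so 13 genes give no steady direction.

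**Figure D4:**
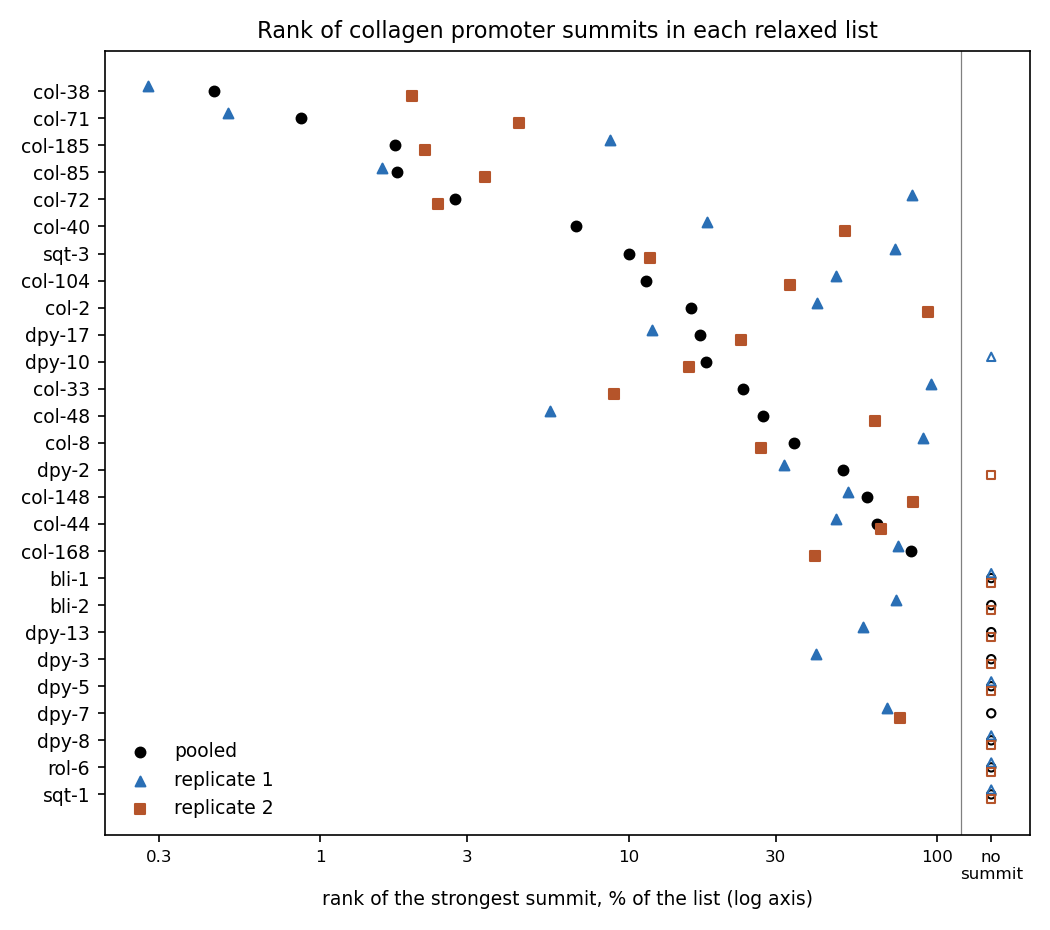
Rank of the strongest window summit as a percentage of the list length (log axis, left is stronger) for collagen genes with a summit in all 3 relaxed lists and for the 13 shape-named collagens; open symbols at the right mark lists without a summit. col-38, col-71, col-85 and col-185 stand at the left in the pooled list, and most others lie between 10% and 100%, with replicate symbols far apart for col-72 and col-33.

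None of col-19, col-12, col-13, col-10 and col-99 had a window summit in more than 1 relaxed list. Of all genes, 38.9% had none in any relaxed list, so these few genes are not set apart. col-19, the standard adult-specific collagen, had 10.7 in the pooled list (rank 26973, 821 bp upstream) and no window summit in either replicate. col-12 and col-13, neighbours that encode nearly identical proteins, had none in any list, with the nearest pooled summit 3181 and 6477 bp upstream. col-10 had none either, with the nearest pooled summit 4525 bp downstream. col-99 had a replicate 1 summit only, with a signal of 8.59 at 612 bp upstream.

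Further genes with a summit in all 3 relaxed lists had signals within the bulk of the lists. col-104 had 20.6 in the pooled list, 7.88 in replicate 1 and 11.1 in replicate 2, and its pooled summit lay 5 bp into its 5′ UTR. col-33 had 17, 5.76 and 15.8 in the same lists, with the pooled and replicate 2 summits at 771 and 769 bp upstream and the replicate 1 summit 828 bp away from the replicate 2 one. At both genes the replicate 1 rank was the weakest of the 3, at 14108 of 30000 for col-104 and 28609 of 30000 for col-33.

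Several of the summits of such genes also lay in the window of a neighbouring gene. col-2 had 18.9 in the pooled list, 8.28 in replicate 1 and 7.99 in replicate 2, and the pooled summit lay 141 bp from the 5′ end of the kinetochore gene ndc-80, against 545 bp from that of col-2. col-8 had 15.2, 5.94 and 11.8 in the same lists, with its pooled summit in the window of rfl-1, which encodes a subunit of the NEDD8-activating enzyme and whose 5′ end was 280 bp away. col-148 had 12.7, 7.63 and 8.33, with summits also in the window of C12D8.21.

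col-48 lies within an intron of the MAP kinase kinase gene mek-2 and had 16.3 in the pooled list, 14.3 in replicate 1 and 9.19 in replicate 2. col-44 had 12.3, 7.87 and 9.06 in these lists, and col-168 had 11.1, 6.52 and 10.5. col-187 resembled dpy-7 in having a summit in each replicate (8.83 and 7.88) and none in the pooled list. In replicate 2, col-159 and col-160 shared 1 summit between them, with a signal of 8.33 at 226 and 214 bp upstream.

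The bounds of the window decided some members. Just inside the upstream bound were pooled summits of col-158 (990 bp), col-65 (987 bp) and col-137 (899 bp), and just outside it were col-68 (1005 bp), col-55 (1049 bp) and col-95 (1055 bp). The summit of col-68 had a pooled signal of 26.8 (rank 1438), above those of col-40 and sqt-3, and in replicate 1 col-68 had a summit inside the window at 973 bp with a signal of 20.2 (rank 549). Inside the downstream bound were col-116 (500 bp), col-40 (497 bp) and col-72 (465 bp), and outside it were further summits of col-71 (545 bp), col-130 (564 bp) and col-47 (581 bp).

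By chromosome, the share of collagen genes with a pooled summit varied more than that of all genes. Chromosome IV had 21 of 42 (50%), against 43.7% of all its genes, and was the only chromosome on which the collagen share was the higher one. Chromosome V had 5 of 32 (15.6%), against 38%, and chromosome III had 3 of 13 (23.1%), against 55.6%. On chromosomes I, II and X the counts were 8 of 22 (36.4%, against 53.3%), 10 of 30 (33.3%, against 42.8%) and 9 of 30 (30%, against 43%). In replicate 1 the share on chromosome IV was 42.9% against 43.3%, and in replicate 2 it was 19% against 29%, so the higher pooled share there was seen in neither replicate list.

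Homeodomain words occurred at similar shares of collagen summits and of promoter summits in general in the pooled and replicate 1 lists, and at a lower share of collagen summits in replicate 2. Within 50 bp of the summit, TAATTG or TAATTA or TAAACG occurred on either strand at 9 of 63 pooled collagen summits (14.3%), against 14.6% of the 9312 distinct pooled summits in windows of all genes. The TAAT core, which lies within both TAATTG and TAATTA, occurred at 61.9% against 60.8% in the pooled list. Its share was lower at collagen summits in replicate 1 (59.1% against 65.9%) and in replicate 2 (46.3% against 54.6%). In replicate 1 the homeodomain words occurred at 10 of 66 (15.2%), against 15.6%, and in replicate 2 at 1 of 41 (2.44%), against 12.7%. The median GC content of those replicate 2 windows was 44.6%, against 39.6%, and its part in the lower share was not tested. None of the 4 optimal collagen summits held a homeodomain word, against 8.55% of 339 optimal summits in windows.

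GATAAG, a word read by GATA factors such as the epidermal regulators ELT-1 and ELT-3, occurred at 4 of 63 pooled collagen summits (6.35%), against 3.69%, and GACGCA at 5 of 63 (7.94%), against 5.29%. In the promoters themselves, from 250 bp before to 50 bp after the 5′ end, 43 of 169 collagen genes held GATAAG (25.4%), against 16.8% of all genes. The homeodomain words occurred in 43.8% of collagen promoters and 42.1% of all promoters, and the median GC content was 37.9% and 34.2%. A word in a window is a description of the letters there, not a site in use.

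Other genes of the cuticle pathway were described by the same windows. None of the genes in these lists had an optimal summit, against 2.4% of all genes. The lists hold 3 to 18 genes, with exact upper limits on the optimal share of 18.5% to 70.8%, so this is not set apart from all genes. Among collagen-processing genes 8 of 11 had a pooled summit (72.7%, 39.0% to 94.0%), against 45.0% of all genes. In replicate 2, 5 of 11 had one (45.5%, 16.7% to 76.6%), against 31.2%. In both replicate lists 3 of 11 had one (27.3%, 6.02% to 61.0%), against 20.3%. mlt-7, a peroxidase that cross-links the cuticle, had 26.4 in the pooled list, 9.02 in replicate 1 and 16 in replicate 2, between 253 and 283 bp upstream. phy-2, a prolyl 4-hydroxylase subunit, had 18.9, 7.42 and 10.8 in the same lists, between 381 and 434 bp downstream. pdi-2, the protein disulphide isomerase that partners the hydroxylase, had 17.5, 7.8 and 12.5.

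Among 7 other cuticle collagens named for a phenotype, dpy-14 (28.5 in the pooled list, 15.7 in replicate 2, 81 and 77 bp upstream) and bli-6 (22.8 in the pooled list, 14.2 in replicate 1, 20.4 in replicate 2) had a pooled summit, and dpy-4, dpy-9, lon-3, rol-8 and sqt-2 had none in any list. Of the basement membrane collagens, let-2 (13.9) and cle-1 (15.9) had a pooled summit and emb-9 had none. Non-collagen components of the apical matrix had a pooled summit in 9 of 18 cases (50%, 26.0% to 74.0%), near the 45.0% of all genes. The strongest were at the moulting gene mlt-10 with 22.8, then the lipocalin gene lpr-3 with 19.9.

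Among regulators of the epidermis and of moulting, 4 of 13 had a pooled summit (30.8%, 9.09% to 61.4%), again against 45.0%. These were elt-6 (25.6), the moulting-cycle factor myrf-1 (22.3), the nuclear receptor gene nhr-25 (13) and peb-1 (11.8). elt-1 (6.8) and lin-29 (5.62) had a window summit in replicate 1 only. The other regulators listed, nhr-23, blmp-1, elt-3, lin-26, bed-3, grh-1 and lin-42, had no window summit in any list. At least 1 of the lists gave a summit for 6 of the 13 (46.2%, 19.2% to 74.9%). The share of all genes was 61.1%, within that interval, so these regulators are not set apart. For scale, 71 of 80 ribosomal protein genes (88.8%) and 125 of 269 nuclear receptor genes (46.5%) had a pooled summit, so the collagen share of 33.1% was the lowest of these 3 large families.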

How the data were processed

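The ce11 peak lists deposited by the authors give a signal per peak, the authors' peak height, which was used only within a list, and a significance score, which was not used. Per the deposited descriptions, the authors called relaxed lists, background included, for each replicate and for the pool, each against a control, and the optimal list came from them by the irreproducible discovery rate procedure. The aligner, caller and threshold were not given in the sources used here, and the lists hold no read counts, so depth is unknown. The ce10 lists were not used.

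Summits were assigned to the windows of 19973 genes (Ensembl release 115, WBcel235; sequence and tRNA names from RefSeq) with Python 3.11.15, numpy 2.4.6, pandas 2.3.3 and scipy 1.17.1. The assignment was checked on simulated summits. Repeats were 32-base words found at more than 1 place. No test was made on the lists of genes. Members and lists were chosen with earlier results of these data known, as were the rank limit of 5000, the 250 bp bins and the 100 bp distance to small RNA genes. Named genes were all members in the optimal list, the next 12 by pooled signal among those with summits in all relaxed lists, the shape-named members, col-10, col-12, col-13, col-19 and col-99, and 3 on each side of each window bound. col-187, col-159 and col-160 were named after their values were seen. elt-5 was not matched in the annotation by name. Alternatives were other windows, peak overlap, the nearest 5′ end, summits with under 50% repeated words, stronger peaks and single replicates.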

Additional observations from a re-analysis of the deposited data

How the results depend on the processing

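The share of collagen genes stayed below that of all genes in every setting run, and 21 of 32 counts stayed within 1.5 times the main count. With a window of 500 bp upstream to the 5′ end, the counts were 2 collagen genes in the optimal list (1.18%, against 1.8% of all genes), 22 in the pooled list (13%, against 23.4%), 21 in replicate 1 (12.4%, against 23%), 14 in replicate 2 (8.28%, against 15.4%) and 2 in both replicates (1.18%, against 8.38%). By construction the shorter window cannot raise a count, but it does not set how far each share falls. In both replicates the main shares were 10.7% of collagen genes and 20.3% of all genes. With 2000 bp upstream, 33 had a summit in both replicates (19.5%, against 30.8%). Counting only the nearest 5′ end left 2 in the optimal list (1.18%, against 1.68%). The upper part of each list by signal (272 and 15000 peaks) left 2 in the optimal list (1.18%, against 1.2%) and 28 in the pooled list (16.6%, against 28.1%), and cutting replicate 1 to the 17926 peaks of replicate 2 left 35 (20.7%, against 31.7%). Requiring replicate summits within 100 bp left 7 shared genes (4.14%, against 10.2%). Replacing the optimal list by an equal number of the strongest peaks of a single replicate gave 3 collagen genes each time: col-38, col-71 and col-85 in replicate 1, and col-38, col-185 and col-72 in replicate 2. The difference in optimal share from all genes was then -0.718 and -0.448 points, against -0.0364 in the main setting, and it rests on so few genes that its size is not stable. Of the 16 members named for their optimal or pooled summits, 4 had a pooled summit in the 500 bp window, and col-85 had 12.1 there and among summits with under 50% repeated words.

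No paired analysis was possible because the 2 replicates form 1 group. Peak lists limit precision through their length, since 30000 peaks end the pooled and replicate 1 lists and weaker summits are not analysed here.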
